A study of Capitella teleta with 12 samples.

Results

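*Twisted gastrulation* (*TSG*), *Noggin A* and *Chordin-like* are on the study's list of TGF-β superfamily components of the annelid *Capitella teleta*, and belong to families of secreted proteins known from other animals to modulate bone morphogenetic protein (BMP) signaling. They were chosen by the protein identifiers of their gene models, '165012', '155479' and '224618' in that order, and are 3 of the 32415 gene models in the count table. The data come from 12 untreated whole embryos of a laboratory colony, each sequenced individually by CEL-Seq: 4 with 8 cells, 3 with 16 cells and 5 with 32 cells. The 16-cell stage falls within the period of organizer activity in this species and the 32-cell stage after it. The sources used here do not say which embryos came from the same brood, so p-values measure the spread between these embryos. Zygotes came from matings within the colony, and RNA was taken from the whole embryo, so a level cannot be assigned to particular blastomeres and no marker of a cell type applies.

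BMPs are secreted ligands of the TGF-β superfamily, and in many animals their reach is set outside the cell by proteins that bind them. Noggin, known best from vertebrates, covers the surface of a BMP dimer that would contact its receptors. Chordin and its relatives, including the Chordin-like proteins of vertebrates, hold BMPs through cysteine-rich repeats, and the metalloprotease Tolloid cuts Chordin and releases them. Twisted gastrulation, first described in *Drosophila*, binds both BMP and Chordin, and has been found to reduce or to promote BMP signaling depending on the context.

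CEL-Seq reads the 3′ end of each polyadenylated transcript and counts molecules by a unique molecular identifier (UMI), so a level is not divided by the length of the gene. Levels are given in CPM, the share of each transcript among all counts of an embryo, after TMM scaling, a step that makes the bulk of genes comparable between embryos. Total counts ranged from 236321 to 491733 per embryo. Fewer cells with a transcript and less transcript per cell cannot be told apart in such a share, nor can either be told apart from a change in the total RNA of the embryo. Tests between stages used edgeR's quasi-likelihood F test over the 11854 gene models with at least 10 counts in all. The p-values were adjusted by the method of Benjamini and Hochberg, and a gene was called at an adjusted p under 0.05. *TSG* with 742 counts and *Noggin A* with 86 passed that minimum, and *Chordin-like* with 5 counts did not. *Noggin A* passed it only through the 32-cell embryos, which held 82 of its counts, so its entry to the tests depended on that stage. Both tested members passed this threshold over the 3 stages together, as did 17.2% of all genes tested. The members were chosen with earlier results of these data known, so their number carries no weight of its own.

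*TSG* was abundant at the 8-cell stage and lower at both later stages. At the 8-cell stage it was counted at 189, 271, 309.7 and 248 CPM in replicates 1 to 4. In 16-cell embryos it was counted at 137, 143 and 131 CPM. In 32-cell embryos the level was 153, 107, 158, 123 and 126 CPM. Each of the 8-cell embryos lay above each later embryo, whereas the 16- and 32-cell embryos overlapped. The gene model occupies positions 26832 to 31411 of a scaffold that the annotation of assembly Capca1 does not name.

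*TSG* averaged 254 ± 50.6 CPM (SD, n = 4) in 8-cell embryos. In 16-cell embryos it averaged 137 ± 5.96 CPM (SD, n = 3), which is 54.0% of the earlier mean. This is a log2 fold change of -0.90 (standard error 0.18, 95% interval -1.28 to -0.53, adjusted p = 0.00196 in edgeR). In this step 3.91% of the genes tested fell past the threshold and 9.36% had every 16-cell embryo below every 8-cell embryo. Of the 464 genes that fell, 282 fell by more on the log2 scale than *TSG*, and the median change of all 464 was -1.09. The fall of *TSG* was thus larger than the spread between embryos and of ordinary size among the genes that fell.

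Between the 16- and 32-cell stages no further change of *TSG* was found. The 32-cell embryos averaged 133 ± 21.4 CPM (SD, n = 5), and the log2 fold change of this step was -0.04 (standard error 0.18, adjusted p = 0.972 in edgeR). Its 95% interval ran from -0.42 to 0.33, so a rise or fall within that interval remained compatible with the counts of these embryos. In this step 0.472% of the genes tested fell past the threshold. Over both steps together *TSG* fell by 0.95 on the log2 scale (standard error 0.16, adjusted p = 0.000150 in edgeR), and 8.98% of the genes tested fell in this comparison. Whether the first step differed from the second was tested as a contrast of its own. The second step exceeded the first by 0.86 on the log2 scale (standard error 0.33), with an unadjusted p of 0.0153 and an adjusted p of 0.232 in edgeR, so the difference between the steps did not pass the threshold over all genes. In that contrast 1.90% of genes passed.

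Counting error in *TSG* corresponds to an SD of 28.1 CPM at the 8-cell stage, compared with the 50.6 CPM observed. A spread beyond counting was not particular to *TSG*, since over all genes compared every pair of 8-cell embryos differed by more than sampling noise (chi-square per degree of freedom 2.30 to 3.02). At the 16- and 32-cell stages the counting SDs were 18.3 and 21.1 CPM, and the observed spread of 5.96 and 21.4 CPM was no wider than that, apart from a fraction of a CPM at the 32-cell stage. Among the gene models detected in an embryo, *TSG* ranked between 661 and 1222 in 8-cell embryos, between 1670 and 1845 in 16-cell embryos and between 1525 and 2105 in 32-cell embryos. Embryos held between 11107 and 13745 detected gene models, so *TSG* remained among the more abundant transcripts of every embryo after its fall.

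**Figure D1:**
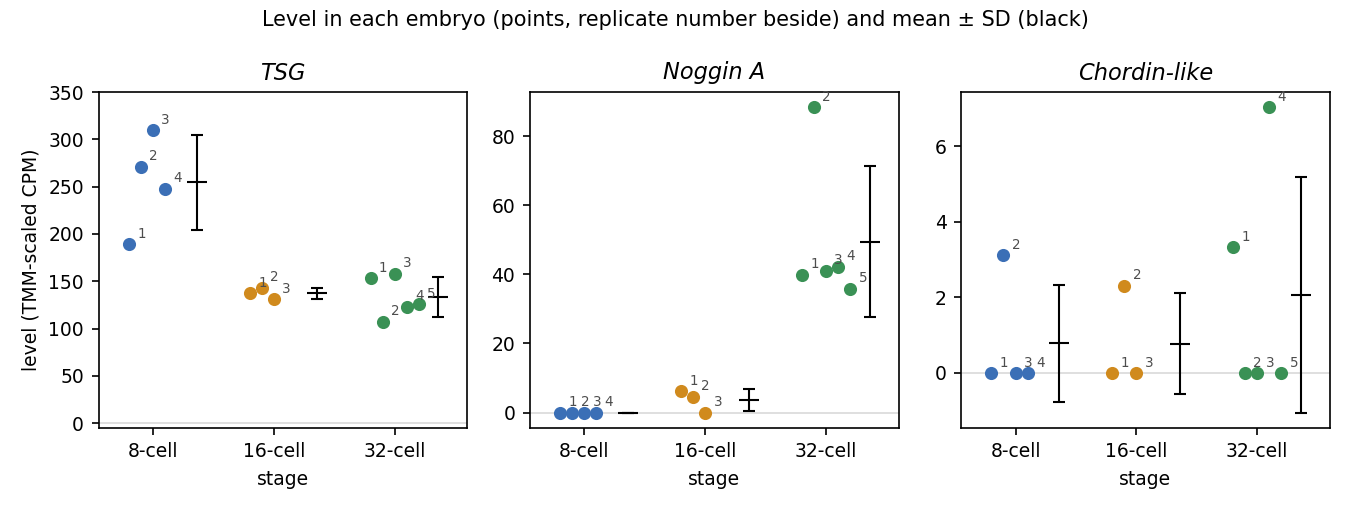
Level of each gene (vertical axis, TMM-scaled CPM, a separate scale for each gene) by stage (horizontal axis). Points are single embryos with their replicate numbers, and black bars are the mean ± SD of 4, 3 and 5 embryos. *TSG* lies between 189 and 309.7 CPM in the 8-cell embryos and between 107 and 158 CPM in all later ones, *Noggin A* reaches 35.9 CPM or more only in the 32-cell embryos, and *Chordin-like* rests on 1 or 2 counts in each of the 4 embryos above 0.

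*Noggin A* changed in the opposite direction over the 3 stages, with no transcript counted in 8-cell embryos and transcripts counted in every 32-cell embryo. All 4 of the 8-cell embryos had 0 counts, which allows up to 2.18 CPM over the summed totals of the stage (3 counts; this limit, like the counting intervals given here, covers counting error only). In 16-cell embryos the counts were 2, 2 and 0. In 32-cell embryos they were 12, 37, 13, 12 and 8, or 39.9, 88.3, 41.1, 42.2 and 35.9 CPM in replicates 1 to 5. The 16- and 32-cell embryos did not overlap, since the highest 16-cell level was 6.10 CPM. The gene model lies at positions 44645 to 46255 of an unnamed scaffold.

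*Noggin A* averaged 3.57 ± 3.18 CPM (SD, n = 3) in 16-cell embryos and 49.5 ± 21.8 CPM (SD, n = 5) in 32-cell embryos. This is a log2 fold change of 3.84 (standard error 0.62, 95% interval 2.54 to 5.13, adjusted p = 0.000502 in edgeR). In this step 1.74% of the genes tested rose past the threshold, and 4.42% had every 32-cell embryo above every 16-cell embryo. As a ratio of counts over the totals the rise was 16.0-fold, with an exact 95% counting interval of 6.03 to 60.2, because the earlier stage rests on 4 molecules. Without 16-cell replicate 3, the embryo at 0, the log2 fold change was 3.18 (adjusted p = 0.00633 in edgeR), and without 16-cell replicate 1 it was 4.34 (0.00149). The rise was therefore present whichever embryo was left out, while its size moved with the few counts of the 16-cell stage.

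The first appearance of *Noggin A* could not be dated from these counts. The study reports a significant increase of *Noggin A* in both steps. It also detected the transcript by fluorescent in situ hybridization in embryos that held the organizer cell, 2d. The study tested for differential expression with a likelihood ratio test in DESeq2. In the edgeR fit used here only the second of the 2 steps passed the threshold. The same held for contrasts between stages in DESeq2 (adjusted p = 0.264 for the first step and 0.000416 for the second). From the 8- to the 16-cell stage the count went from 0 to 4. With 3 counts allowed at the 8-cell stage this is 1.49-fold over the totals. That value takes the 4 counts as exact, so it is not a lower limit of the rise. The step did not pass the threshold (adjusted p = 0.140 in edgeR, unadjusted p = 0.0231). In that step 5.52% of the genes tested rose. From the 8- to the 32-cell stage the rise passed it (adjusted p = 3.60e-06 in edgeR), as for 11.0% of genes. A difference between the steps of *Noggin A* did not pass the threshold on the log2 scale in edgeR (adjusted p = 0.856), where the 8-cell level is known only as a limit. In CPM, the mean gain was 3.57 (standard error 1.84) in the first step and 45.9 (standard error 9.94) in the second.

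One embryo stood apart for *Noggin A*. Replicate 2 of the 32-cell stage had 37 of the 82 counts of that stage, and the other 4 embryos lay close together at 39.8 ± 2.77 CPM (SD, n = 4). Its exact 95% counting interval, 62.2 to 122 CPM, did not include the other 4 levels, although their own intervals reached up to between 69.7 and 73.7 CPM and so overlapped it. It also had the largest total of the 32-cell embryos, 408777 counts, and the lowest *TSG* of the stage, 107 CPM. After random thinning of each embryo to 236321 counts it held 18 counts of *Noggin A*, compared with 8 to 11 in the others, so it remained the highest at equal depth. Without this embryo the last step was 3.49 on the log2 scale (standard error 0.65, adjusted p = 0.00327 in edgeR).

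The fall of *TSG* and the onset of *Noggin A* were then set against each other within each embryo. The difference of log2(CPM + 1) between *TSG* and *Noggin A* was 7.97 ± 0.30 (SD, n = 4) in 8-cell, 5.34 ± 1.495 (SD, n = 3) in 16-cell and 1.48 ± 0.69 (SD, n = 5) in 32-cell embryos. Single embryos lay between 7.57 and 8.28, between 4.28 and 7.05, and between 0.28 and 1.92. The ranges of the 3 stages did not overlap. In the 4 embryos with 8 cells and in 16-cell replicate 3, *Noggin A* was at 0, so the value there is that of *TSG* alone with a pseudocount of 1. The gap between the 8-cell embryos and 16-cell replicate 3, which sets the top of its stage at 7.05, is therefore a gap in *TSG*. The genes were paired for this pattern with earlier results known, so the difference is a description and no test is given for it.

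*TSG* had more counts than *Noggin A* in all 12 embryos. Of the counts of the pair, *Noggin A* made up 0 of 365 in 8-cell embryos, which allows a share of up to 0.822%, and 2.26% in 16-cell embryos (4 of 177, exact 95% interval 0.619% to 5.68%). At the 32-cell stage it made up 28.7% (82 of 286, exact 95% interval 23.5% to 34.3%). In the 32-cell embryos the share was 20.7%, 45.1%, 20.6%, 25.5% and 22.2% in replicates 1 to 5. Over the last step no change of *TSG* was found, and the larger share of *Noggin A* in 32-cell embryos came with the rise of *Noggin A* itself. In amount, *TSG* fell by 117 CPM (standard error 25.5) in the first step, and *Noggin A* gained 45.9 CPM in the second. A comparison of level between genes also depends on whether each gene model reaches the 3′ end of its transcript, and this was not tested.

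**Figure D2:**
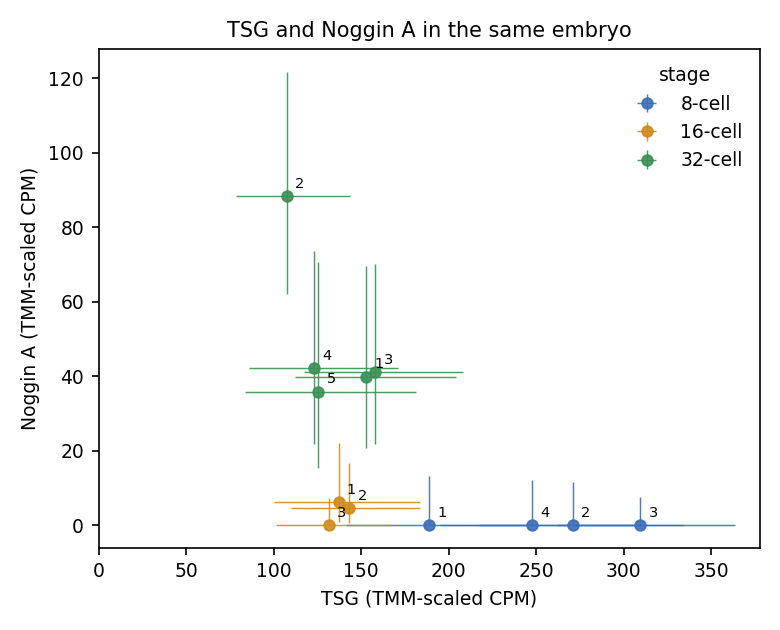
*TSG* (horizontal axis) against *Noggin A* (vertical axis) in each of the 12 embryos, both in TMM-scaled CPM. Colors mark the stages, numbers the replicates and bars exact 95% counting intervals. The 8-cell embryos lie along the bottom at 189 CPM of *TSG* or more, the 16-cell embryos at 131 to 143 CPM with at most 6.10 CPM of *Noggin A*, and the 32-cell embryos above them, with replicate 2 highest at 88.3 CPM.

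*Chordin-like* was close to the limit of detection throughout. It had 1 count in 8-cell replicate 2, 1 in 16-cell replicate 2, 1 in 32-cell replicate 1 and 2 in 32-cell replicate 4, and 0 in the other 8 embryos. Pooled over the stage and divided by the totals, this corresponds to 0.728 CPM in 8-cell embryos (exact 95% counting interval 0.0184 to 4.06), 0.815 CPM in 16-cell embryos (0.0206 to 4.54) and 1.91 CPM in 32-cell embryos (0.394 to 5.59). The intervals overlap widely. An exact permutation test of its level over the 27720 assignments gave p = 0.722, and the ratio of the 32- to the 8-cell stage was 2.63 with an exact 95% counting interval of 0.211 to 138. A difference between stages was thus not detectable at this depth, and the interval is wide enough to hold a change larger than that of *TSG* in either direction. The gene model covers positions 127197 to 131737 of an unnamed scaffold.

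The study's list groups these genes with 7 further components. SMURF, a ubiquitin ligase that acts inside the cell, was left out here and had 171, 131 and 182 counts in the 8-, 16- and 32-cell embryos. The other 6, here called the other modulators, include the membrane proteins BAMBI and NOMO and were mostly at or near the limit of detection. Gremlin, an antagonist of BMPs in vertebrates, had 0 counts in all 12 embryos, and *Noggin B*, the second Noggin gene, had 2 counts, both at the 32-cell stage. The gene model of Gremlin spans 336 bases. Whether the gene models of this list reach the 3′ ends of their transcripts was not tested, so few counts need not mean little transcript. Tolloid, the protease that acts on Chordin, had 4 counts, and Follistatin, which binds activins and some BMPs, had 8. BAMBI, a membrane protein that resembles a type I receptor without its kinase, had 23 counts, 16 of them at the 32-cell stage. Without that stage BAMBI would not have reached the minimum for testing. NOMO, a modulator of Nodal signaling in zebrafish, had 24. Only BAMBI and NOMO had enough counts to be tested. Over the 3 stages, 0 of these 2 passed the threshold by the F test of edgeR (adjusted p = 0.252 and 0.325), beside 17.2% of all genes tested. The unadjusted p in edgeR was 0.093 for BAMBI and 0.140 for NOMO. In DESeq2's likelihood ratio test 0 passed, beside 1577 of the 11854 genes tested. With 2 genes tested at such shares, this is no result about the modulators as a group.

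Among these 9 modulators, without SMURF, most transcripts counted were those of *TSG*, and in 32-cell embryos also those of *Noggin A*. Summed over the 9, *TSG* made up 97.3% of 375 counts in 8-cell embryos (exact 95% interval 95.2% to 98.7%), 87.8% of 197 in 16-cell embryos (82.4% to 92.0%) and 63.4% of 322 in 32-cell embryos (57.8% to 68.6%). *Noggin A* was the second, with 25.5% at the 32-cell stage (20.8% to 30.6%). *Chordin-like* made up 0.932% of these counts at the 32-cell stage. With SMURF counted as well, the share of *TSG* was 66.8%, 52.7% and 40.5% at the 3 stages in turn, and that of *Noggin A* in 32-cell embryos was 16.3%.

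**Figure D3:**
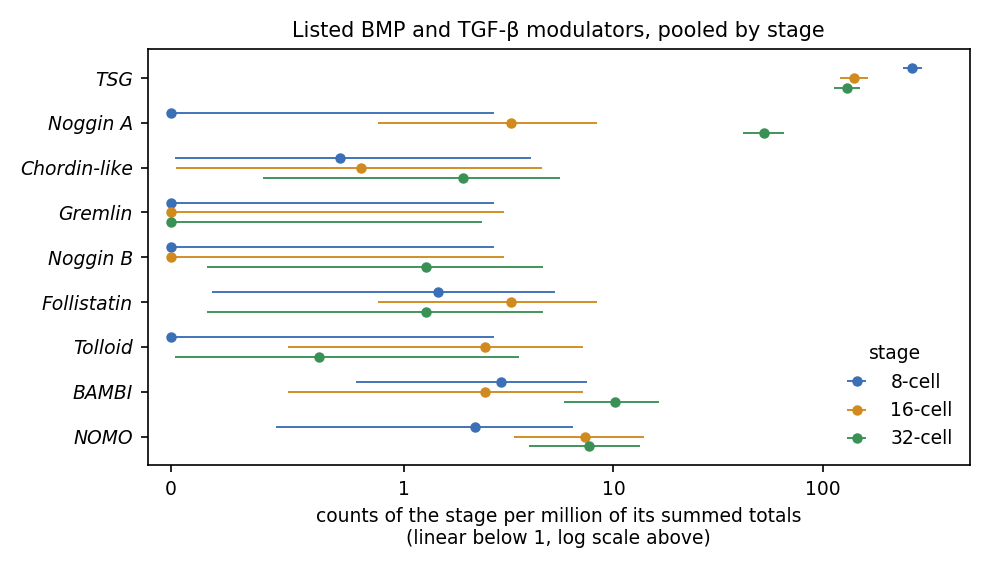
Counts of each of the 9 modulators, without SMURF, summed over the embryos of a stage, in CPM of the summed totals (horizontal axis, linear below 1 and logarithmic above), with exact 95% counting intervals as bars. Only *TSG*, at 130.0 or more in each stage, and *Noggin A* at the 32-cell stage, at 52.2, stand clear of the rest.

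The ligands that these proteins could bind were measured in the same embryos. Of 7 BMP-branch ligands listed, 4 had enough counts to be tested (*BMP2/4*, *BMP5/8*, *BMP3* and *Maverick*). Over the 3 stages, 0 passed the threshold by the F test of edgeR, beside 17.2% of all genes tested. By the likelihood ratio test of DESeq2 0 passed, beside 1577 of the 11854 genes tested. The unadjusted p in edgeR was 0.0362 for *BMP2/4*, 0.0429 for *Maverick*, 0.310 for *BMP5/8* and 0.839 for *BMP3*. With 4 genes tested, these counts are no result about the ligands as a group. The median log2 change of the 4 from the 8- to the 32-cell stage was 0.45, beside 0.09 over all genes tested. Singly, the change was 0.51 for *BMP2/4* (95% interval 0.13 to 0.90, adjusted p = 0.0529 in edgeR). It was 0.38 for *BMP5/8* (95% interval -0.25 to 1.01) and 0.05 for *BMP3* (-1.23 to 1.34). *BMP3* varied widely between embryos, from 14.25 to 91.45 CPM at the 8-cell stage and from 0 to 82.1 CPM at the 32-cell stage. For *Maverick*, with 13 counts in all, the change was 3.93 (95% interval 0.85 to 7.01, adjusted p = 0.0665 in edgeR). Its counts were 0, 5 and 8 at the 3 stages in turn. *Maverick* thus reached the minimum for testing only through the later stages, and its change is measured from 0 counts. *BMP2/4*, the most abundant of them, averaged 103 ± 19.2 CPM (SD, n = 4) in 8-cell embryos, 129 ± 29.9 CPM (SD, n = 3) in 16-cell embryos and 147 ± 18.6 CPM (SD, n = 5) in 32-cell embryos (adjusted p = 0.135 over the 3 stages in edgeR). *TSG* exceeded *BMP2/4* in 4 of 4 embryos with 8 cells, in 1 of 3 with 16 cells and in 2 of 5 with 32 cells. The difference of log2(CPM + 1) between them was 1.30 ± 0.22 (SD, n = 4), 0.12 ± 0.42 (SD, n = 3) and -0.14 ± 0.39 (SD, n = 5). This comparison was chosen after the values were seen and is given without a test.

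Genes with the pattern most like that of each member were sought by the Pearson correlation of log2(CPM + 1) over the 12 embryos, among 7651 other genes with a mean of at least 10 CPM. The points share their libraries and the difference between stages, and the correlations are a description. For *TSG* the closest were gene models 203641 (r = 0.922) and 219758 (r = 0.919), which the annotation gives without a name. Gene model 203641 averaged 222 ± 34.1 CPM in the 4 embryos with 8 cells, 47.3 ± 7.09 CPM in the 3 with 16 cells and 37.7 ± 11.5 CPM in the 5 with 32 cells (± SD), a proportionally deeper fall than that of *TSG*, and gene model 219758 went from 88.1 ± 10.8 to 32.7 ± 2.51 and 31.2 ± 6.64 CPM in the same embryos. In both, as in *TSG*, the lower level was already present at the 16-cell stage, a likeness for which they were chosen.

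For *Noggin A* the closest were gene models 197869 (r = 0.994) and 145086 (r = 0.969), likewise unnamed. Gene model 197869 had 0 counts in the 8-cell embryos, 2, 1 and 0 counts in the 16-cell embryos, and 8, 17, 12, 9 and 6 counts in the 32-cell embryos. The embryo without *Noggin A* at the 16-cell stage was also the embryo without this transcript, and 32-cell replicate 2 was the highest for both. Both gene models were chosen for their likeness to *Noggin A* over these same embryos, so such agreement follows from the choice. Gene model 145086 was already present at the 8-cell stage, at 7.42 ± 2.18 CPM (SD, n = 4), and reached 45.2 ± 8.06 CPM (SD, n = 5) at the 32-cell stage, where replicate 2 was again the highest at 57.3 CPM.

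**Figure D4:**
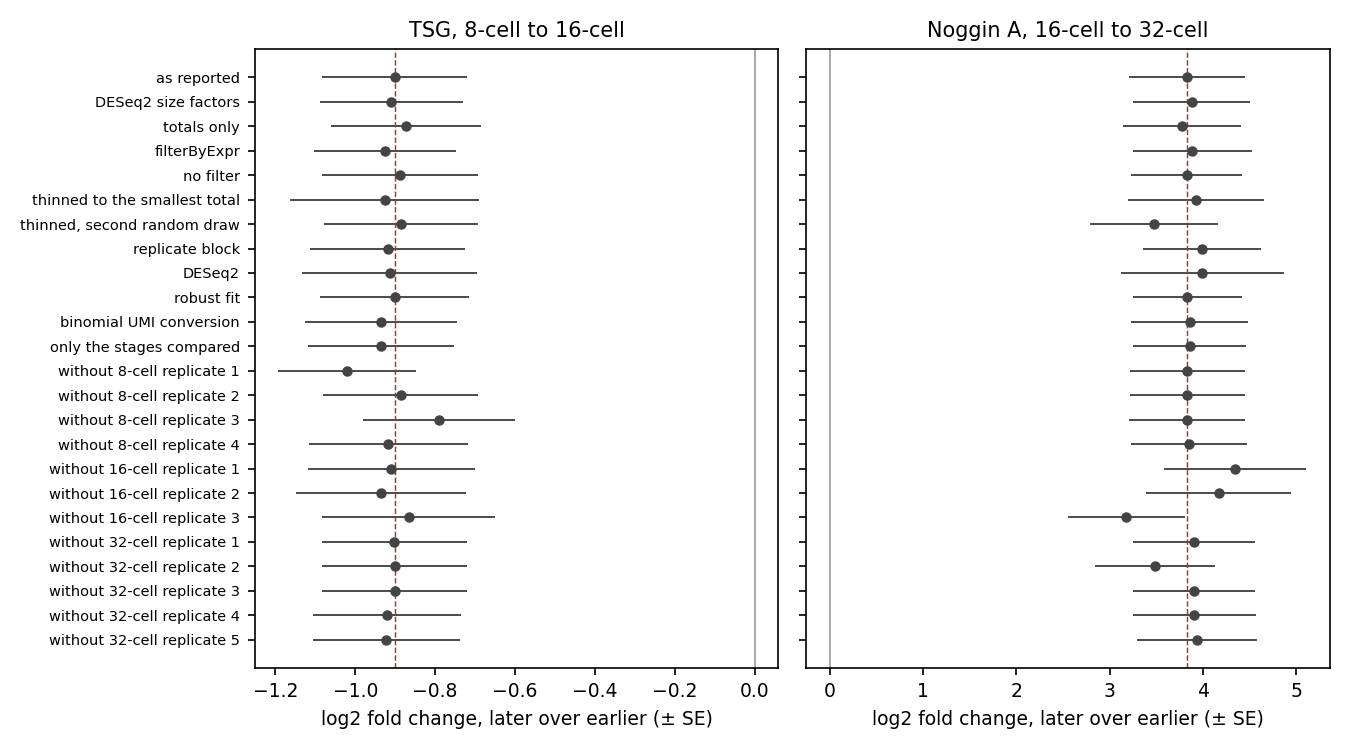
Log2 fold change (horizontal axis, later over earlier stage, bars ± SE) of *TSG* from the 8- to the 16-cell stage and of *Noggin A* from the 16- to the 32-cell stage, as reported and under each alternative (vertical axis). The dashed line marks the reported value. *TSG* stays between -1.02 and -0.79 and *Noggin A* between 3.18 and 4.34, both away from 0 under every alternative shown.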

How the data were processed

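Reads were split by barcode and aligned by the authors to the genome of *C. teleta* (assembly Capca1) with Bowtie2. UMIs were then counted for each gene model with HTSeq, and the study describes a binomial correction that turns UMIs into transcripts. The counts as deposited are whole numbers and not normalized, and no count exceeds 1024. That is the number of possible UMIs of 5 bases, and 28 values stand at it. The deposited counts were therefore taken as UMIs before the correction. The deposited CPM values equal each count over the total of its embryo, times 1000000. A further deposited table holds the authors' own test (means, fold changes, p-values) and was not used. The tables used held 0 columns of other samples.

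Stages and replicate numbers were taken from the labels. Gene names came from the study's component list, and locus tags of the annotation were found for 98.6% of gene models. The members and lists were chosen with earlier results of these data known. Counts were analysed with edgeR 4.0.16 and DESeq2 1.42.0 in R 4.3.3, and with scipy 1.17.1 in Python 3.11.15. All 12 embryos entered a fit without covariates, and standard errors were obtained by dividing the absolute log2 fold change by the root of the F statistic. Named genes were the 3 members, the 6 other modulators (without SMURF, whose counts were added after seeing the data), the 7 BMP-branch ligands and, for *TSG* and *Noggin A*, the 2 genes of highest correlation. Replicates of a stage differed by more than sampling noise in all 19 pairs (chi-square per degree of freedom 1.81 to 3.02). Totals had a median of 320464 counts. Alternatives covered scaling, filters, depth, a replicate block, tool, stages fitted, UMI conversion, pseudocount and each embryo left out. A second random draw of the thinning was added after seeing the data.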

Additional observations from a re-analysis of the deposited data

Results flagged for a closer look

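In groups of 4 or 5 embryos, a single embryo far from the others could be looked for in 7 cases, and 3 were found, of which a pair share the same *Noggin A* value. Chance gives about 1 in 20 for values that follow a normal distribution, which low counts need not do. *Noggin A* in 32-cell replicate 2 stood at 88.3 CPM, and its gap to the next embryo was 0.879 of the range of the stage. The same embryo had the smallest difference between *TSG* and *Noggin A*, 0.28 on the log2 scale, with a gap of 0.759 of the range, which is not a separate event because it contains the same *Noggin A* value. *Chordin-like* in 8-cell replicate 2 stood at 3.12 CPM with the other 3 embryos at 0, and this value is 1 count.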

How the results depend on the processing

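Of 300 values recomputed for 14 results, 294 kept their side of the threshold and, where they had one, their direction. The other 6 changed direction without passing it. The 300 include 17 for the difference between *TSG* and *Noggin A* within embryos, which is a description, and 15 for *Chordin-like*. They also include 21 and 22 for the numbers of other modulators and of ligands called, which stayed at 0. These values could hardly change side and carry no weight. The calls of *TSG* and *Noggin A* were kept in all alternatives. The step of *TSG* from the 16- to the 32-cell stage, at -0.04 on the log2 scale, became positive with DESeq2 size factors (adjusted p = 0.999 in edgeR), in DESeq2 (1.00), after thinning (0.925 in the first random draw and 0.9965 in the second), and without 32-cell replicate 2. With each embryo left out its adjusted p lay between 0.926 and 1.00. In the first draw *TSG* kept 16 of its 66 counts in 16-cell replicate 3. The contrast between the steps of *Noggin A* became negative without 16-cell replicate 3, with an adjusted p between 0.793 and 0.924 over the embryos left out. Replicate numbers did not pair the embryos, since deviations from the stage means correlated between -0.06 and 0.05 for the same number. With the replicate block the adjusted p was 0.00162 for the fall of *TSG* to the 16-cell stage and 8.03e-05 for the rise of *Noggin A* to the 32-cell stage, and no call changed. The other modulators could not be tested with filterByExpr, which kept 0 of them, nor *Noggin A* from the 8- to the 16-cell stage in a fit of these stages alone. Depth limits *Chordin-like* and the date of onset of *Noggin A*, which rest on 5 and 4 counts.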
